A study of Mus musculus with 10 samples.

Results

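The 9 receptors described here are the chemokine receptor genes Ccr2, Ccr4, Ccr6, Ccr7, Ccr8, Ccr9, Cxcr3, Cxcr5 and Cxcr6 in a mouse model of T-ALL (acute lymphoblastic leukemia of T cells), a set of lymphoid and myeloid homing receptors that leaves out Cxcr4. Members were taken as every probe set that the platform annotation gives to 1 of these 9 symbols alone, which found 17 probe sets of 45101 and 9 genes of 18193. Of these, 6 genes have 1 probe set each, while Cxcr6 has 2, Ccr2 has 4 and Ccr9 has 5.

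The leukemias were driven by ICN1, an activated form of NOTCH1, and were transplanted into secondary recipient mice. All 10 samples carried the ROSCreERT2 transgene, a Cre recombinase that tamoxifen switches on, and 2 floxed alleles of CnB1 (current symbol Ppp3r1), the gene of the regulatory subunit of the phosphatase calcineurin. Mice that had become leukemic received tamoxifen, which deletes CnB1 (TAM, 5 arrays), or its carrier, corn oil (OIL, 5 arrays), so the 2 groups differ in the drug as well as in the deletion. Leukemic cells were sorted from bone marrow by a fluorescent marker, and RNA was hybridised to 3' expression arrays. Each group holds the labels 204, 206, F3, F3.1 and F3.2, whose meaning the labels do not give, and no age is given. For F3.1 and F3.2 the label carries a further final number that differs between OIL and TAM. That number was left off here to match them, so the pairs and blocks of these labels rest on this choice.

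Chemokine receptors are G protein-coupled receptors that steer cells along gradients of chemokines. Their signal runs through Gi proteins to phosphoinositide 3-kinases and Rac, and kinases of the GRK family and arrestins end it. CCR9 brings developing and gut-homing T cells to CCL25 in the thymus and small intestine, CCR7 brings T cells to lymph nodes and, in mouse NOTCH1-driven T-ALL, is known for guiding leukemic cells into the central nervous system, and CCR4, CCR6, CCR8, CXCR3, CXCR5 and CXCR6 mark subsets of mature effector, regulatory and helper T cells.

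Ppp3r1 was checked first. Probe set 1421786_at lay between 4.49 and 6.04 log2 units in OIL and between 3.02 and 3.59 in TAM, a difference of -2.06, lower in 5 of 5 pairs of a label. All TAM values and the lowest OIL value of 1421786_at lay under the background limit described below (5.12 to 5.50), so -2.06 is not an exact size. Probe set 1433591_at was brighter, between 9.71 and 9.91 in OIL and between 9.63 and 9.72 in TAM. It differed by -0.12, lower in 5 of 5 pairs, and which part of the gene the probes cover was not analysed here. T cell identity was present throughout, since the 11 T lineage markers with a probe set, among them Cd3d, Cd3e, Thy1 and Bcl11b, were above the background limit on all arrays. Array medians lay between 5.07 and 5.13, and the OIL F3.1 and OIL F3.2 arrays were the closest pair (r = 0.997 over probe sets). In a bulk sample, fewer cells with a transcript and less transcript per cell cannot be told apart.

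Of the 9 receptors, Ccr9 was the one with a probe set above background on every array. The background limit was set per array, since the deposited table has no detection calls: it is the 95th percentile of 83 probe sets of 74 olfactory, vomeronasal and bitter taste receptor genes, and it lay between 5.12 and 5.50. Among the 17 receptor probe sets, 1 exceeded it on all 10 arrays (Ccr9 1427419_x_at), against 39.9% of all probe sets. That probe set also exceeded the 99th percentile on all 10 arrays, and on OIL 204 it was the only Ccr9 probe set above the limit. Another 4 exceeded the limit on some arrays: Ccr9 1421920_a_at on 9, Ccr9 1421919_a_at on 6, Ccr7 1423466_at on 5 and Ccr2 1460067_at on 2. The other 12 exceeded it on none, so that 6 genes, Ccr4, Ccr6, Ccr8, Cxcr3, Cxcr5 and Cxcr6, had no probe set above it on any array. For those 6, a missing transcript and one under what the array resolves cannot be told apart.

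**Figure D1:**
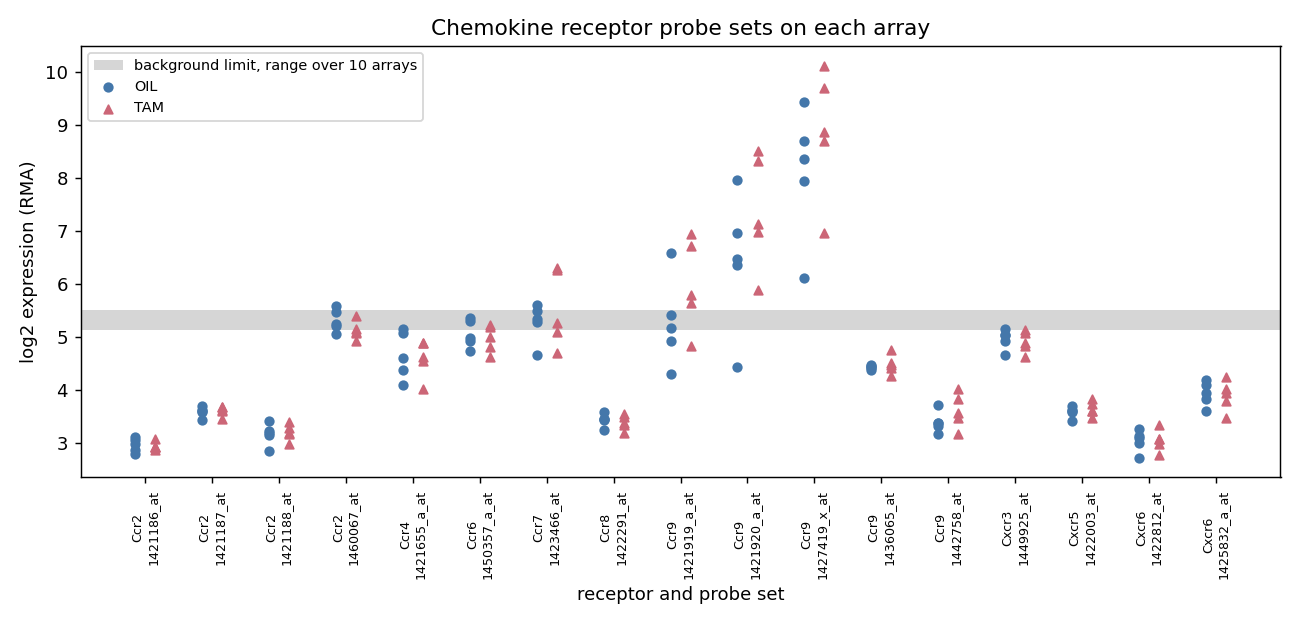
Log2 expression (vertical axis) of the 17 receptor probe sets (horizontal axis) on the 5 OIL arrays (circles) and 5 TAM arrays (triangles); the grey band spans the background limits of the 10 arrays, 5.12 to 5.50. Ccr9 1427419_x_at lies above the band on every array, 12 probe sets lie under their array's limit throughout, and OIL and TAM overlap for each probe set.

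Sequence upstream of the start site was taken from the RefSeq promoter table (GRCm38.p6), which matched 7 of the 9 genes, not Ccr7 and Cxcr5. Shown are 3 windows of 250 bases each. That of Ccr9, the receptor with a probe set above background on every array, is beside those of Ccr8 and Cxcr3, receptors at background whose windows overlap no annotated gene. The Ccr9 window is chr9:123766961-123767210 (+ strand) and lies within the span of the non-coding gene Gm17021. The Ccr8 window is chr9:120091883-120092132 (+ strand) and the Cxcr3 window is chrX:101734148-101734397 (- strand). Capitals mark matches on either strand to GGAAA, the core bound by NFAT, to TGGGAA, the core bound by RBPJ, the DNA-binding partner of NOTCH1, or to CANNTG, the E box bound by E proteins; TGGGAA followed by A also holds GGAAA.
Ccr9: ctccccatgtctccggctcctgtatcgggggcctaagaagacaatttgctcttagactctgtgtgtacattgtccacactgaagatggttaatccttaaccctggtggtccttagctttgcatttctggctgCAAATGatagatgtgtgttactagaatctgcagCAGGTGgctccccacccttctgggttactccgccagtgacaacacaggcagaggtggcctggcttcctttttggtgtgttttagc
Ccr8: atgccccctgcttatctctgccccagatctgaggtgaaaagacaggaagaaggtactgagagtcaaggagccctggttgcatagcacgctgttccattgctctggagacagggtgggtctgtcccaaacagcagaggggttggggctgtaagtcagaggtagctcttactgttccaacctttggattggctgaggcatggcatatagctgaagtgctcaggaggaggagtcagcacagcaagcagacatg
Cxcr3: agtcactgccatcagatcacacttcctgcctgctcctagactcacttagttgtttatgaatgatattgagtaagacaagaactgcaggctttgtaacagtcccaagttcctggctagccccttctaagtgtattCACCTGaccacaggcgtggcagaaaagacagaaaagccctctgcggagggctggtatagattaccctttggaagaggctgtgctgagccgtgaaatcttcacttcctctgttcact
The Ccr9 window holds 2 E boxes (118 and 85 bases before the start) and 0 matches to the NFAT or RBPJ core, the Cxcr3 window holds 1 E box (116 bases before the start), and the Ccr8 window holds 0 matches to any of the 3 motifs. Over all 32851 windows of this length, 55.6% hold the NFAT core, 21.6% the RBPJ core and 66.2% an E box, so each of these motifs is common. Matches to the NFAT core were present in the windows of Ccr2 (3), Ccr4 (1) and Cxcr6 (3) and in both windows of Ccr6 (1 each), and the RBPJ core in 1 window of Ccr6. A match is a string of letters and was not tested as a binding site.

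Ccr9 differed several-fold between arrays of the same treatment. On probe set 1427419_x_at, the OIL arrays read 6.10 (204), 7.94 (206), 8.36 (F3.1), 8.70 (F3.2) and 9.43 (F3) log2 units. The TAM arrays read 6.97 (204), 8.87 (206), 8.70 (F3.1), 10.12 (F3.2) and 9.69 (F3). The 204 arrays were the lowest of both groups, and the groups overlapped over most of their range. The mean was 8.87 ± 1.21 in TAM and 8.11 ± 1.24 in OIL (SD, n = 5), 0.76 log2 units or 1.69-fold higher in TAM.

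That difference was smaller than the spread between arrays of a group and did not pass the test (limma adjusted p = 0.698, 95% confidence interval -0.74 to 2.27). Within labels, TAM was above OIL in 5 of 5 pairs, by 0.86 (204), 0.93 (206), 0.34 (F3.1), 1.42 (F3.2) and 0.26 (F3). With the label as a block the interval was 0.37 to 1.15 and the adjusted p was 0.0544, which also missed the threshold of 0.05. The matching of F3.1 and F3.2 between the groups is the least certain, and OIL F3.2 and TAM F3.1 had the same rounded value, 8.70, so the count of 5 pairs rests on that matching. Without the OIL 204 array the unblocked difference was 0.26, and without the TAM 204 array it was 1.24 (adjusted p = 0.893 and 0.466). Either step keeps the other 204 array, the lowest of its group. Without both 204 arrays the difference in the fit with the block was 0.74 (limma adjusted p = 0.133).

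The other bright Ccr9 probe sets followed the same pattern. Probe set 1421920_a_at read 4.43 (204), 6.35 (206), 6.46 (F3.1), 6.96 (F3.2) and 7.96 (F3) in OIL, and 5.88, 7.12, 6.98, 8.50 and 8.33 in TAM in the same order of labels. Probe set 1421919_a_at read 4.30, 5.16, 4.92, 5.42 and 6.58 in OIL, and 4.82, 5.80, 5.64, 6.71 and 6.95 in TAM. Both were higher in TAM in 5 of 5 pairs, by 0.93 and 0.71 log2 units on average. These averages are not exact sizes. The OIL 204 value of 1421920_a_at (4.43) lay under its limit of 5.32, and 1421919_a_at exceeded the limit on 2 OIL and 4 TAM arrays. Over the 10 arrays the 3 probe sets correlated with Pearson r of 0.98, 0.96 and 0.92, as a description of probes for 1 transcript on the same arrays. Fitted with every probe set of the array and the label block, 1421919_a_at passed (adjusted p = 0.0439), while 1421920_a_at (0.0568) and 1427419_x_at (0.0712) did not. That fit called 1.30% of all probe sets, it was chosen after the data had been seen, and 1421919_a_at exceeded the background limit on 6 arrays only.

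The remaining Ccr9 probe sets were dim. Probe set 1436065_at ranged from 4.25 to 4.75 over all arrays and differed by 0.05 between the groups, and 1442758_at ranged from 3.16 to 4.01 and differed by 0.22. The first was higher in TAM in 3 of 5 pairs and the second in 5 of 5. Neither exceeded the background limit on any array, so their values do not give the size of the Ccr9 difference.

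**Figure D2:**
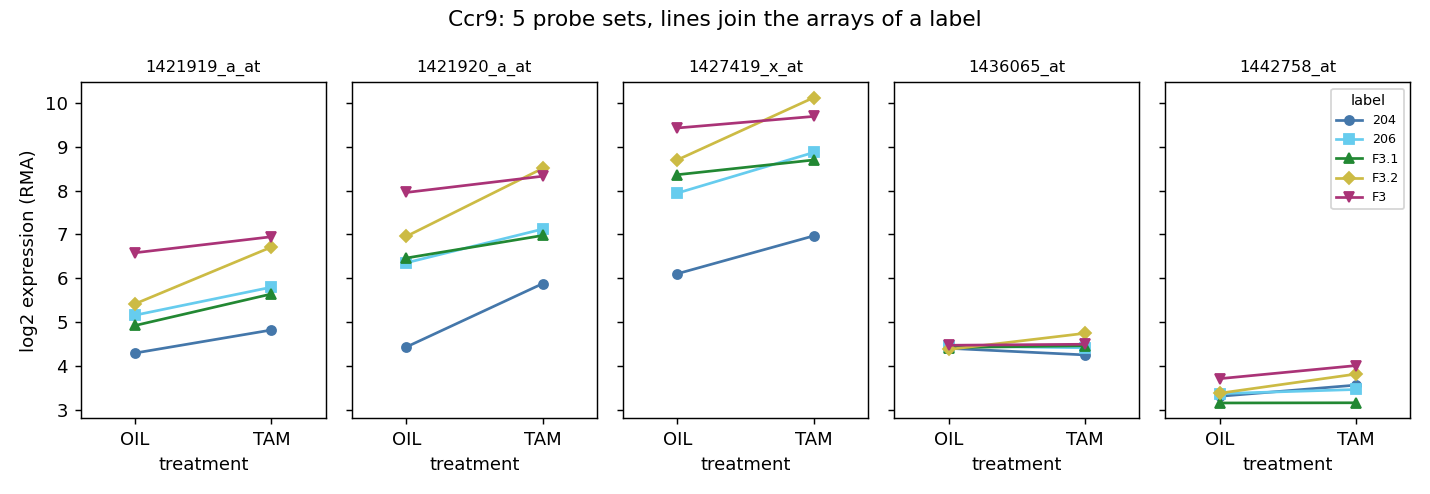
Log2 expression (vertical axis) of the 5 Ccr9 probe sets in OIL and TAM (horizontal axis), 1 panel per probe set, with a line joining the OIL and the TAM array of each label. In the 3 brighter probe sets all 5 lines slope upward and the 204 line is the lowest, while 1436065_at stays between 4.25 and 4.75.

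Markers of neutrophils varied over the same arrays. The mean log2 level of 8 neutrophil markers lay between 4.90 and 6.59 in OIL and between 5.45 and 7.12 in TAM, with 1 to 6 of the 8 above the background limit on an array. S100a8 and Ngp, which encode granule or cytosolic proteins of neutrophils, differed by 0.94 and 0.69 between TAM and OIL without passing the test, while Elane and Csf3r were above the limit on 0 arrays. Markers of monocytes averaged 4.68 to 5.01 in OIL and 4.89 to 5.35 in TAM, with Csf1r above the limit on all 10 arrays and Itgam, Adgre1 and Cd14 on none. The part of such cells in the Ccr9 values was not tested.

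Among 6 tested receptors, 0 were called between TAM and OIL without the block, where 0.471% of the 12735 tested genes were called, and 0 with it, where 3.38% were. A gene was tested if its brightest probe set was not among the lowest 30% of genes by mean (under 4.59). Ccr2, Ccr4, Ccr6, Ccr7, Ccr9 and Cxcr3 passed, and Ccr8, Cxcr5 and Cxcr6 did not. At an unadjusted p under 0.05, 0 of the 6 passed without the block (13.0% of all tested genes) and 2, Ccr9 and Ccr2, with it (22.4% of all). The same direction in all 5 pairs was found for 2 of 6, again Ccr9 (up) and Ccr2 (down), against 21.9% of all tested genes. OIL and TAM did not overlap for 0 of 6, against 3.27% of all. The median difference of the 6 was -0.06, beside -0.03 over all tested genes.

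Ccr7 was the most variable receptor after Ccr9 and had no common direction. In OIL it read 5.29 (204), 4.66 (206), 5.49 (F3.1), 5.60 (F3.2) and 5.33 (F3). In TAM it read 5.08 (204), 5.27 (206), 6.26 (F3.1), 4.70 (F3.2) and 6.29 (F3). The 2 highest values, TAM F3.1 and TAM F3, stood apart from the other arrays, yet TAM F3.2 was the lowest of its group, and OIL and TAM overlapped. Ccr7 was above the background limit on 3 OIL arrays (F3.1, F3.2 and F3) and 2 TAM arrays (F3.1 and F3), and on none of the labels 204 and 206. Some margins were small, with OIL F3.1 at 5.493 against its limit of 5.486 and OIL 204 at 5.285 against 5.320. Ccr7 exceeded the 99th percentile on 2 arrays, TAM F3.1 and TAM F3. It was higher in TAM in 3 of 5 pairs. The difference was 0.25 (95% confidence interval -0.46 to 0.95), with an adjusted p of 0.798 without and 0.607 with the block. It was 0.054 without TAM F3, 0.062 without TAM F3.1, 0.095 without OIL 206 and 0.45 without TAM F3.2.

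Ccr2, the receptor of CCL2 that brings monocytes out of the bone marrow, was near the background limit. Its brightest probe set, 1460067_at, read 5.21 (204), 5.25 (206), 5.46 (F3.1), 5.58 (F3.2) and 5.04 (F3) in OIL. In TAM it read 5.15 (204), 5.08 (206), 5.39 (F3.1), 5.10 (F3.2) and 4.91 (F3). All 5 labels were lower in TAM, by 0.06 to 0.48, and the groups overlapped. The mean difference of -0.18 did not pass (adjusted p = 0.571 without and 0.223 with the block). The other 3 Ccr2 probe sets, between 2.79 and 3.70 on all arrays, differed by -0.02, 0.015 and 0.04.

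Ccr6, a receptor of CCL20 on B cells and T helper 17 cells, and Ccr4, a receptor of CCL17 and CCL22 on T helper 2 and regulatory T cells, differed little with treatment. Ccr6 read 4.72 (204), 4.93 (206), 5.29 (F3.1), 5.34 (F3.2) and 4.98 (F3) in OIL and 4.62, 4.81, 5.17, 5.23 and 4.99 in TAM, in the same order. Ccr4 read 5.15 (204), 5.06 (206), 4.10 (F3.1), 4.60 (F3.2) and 4.38 (F3) in OIL and 4.88, 4.89, 4.55, 4.01 and 4.62 in TAM. The pair differences of Ccr6 lay between -0.12 and 0.012. Those of Ccr4 lay between -0.59 (F3.2) and 0.45 (F3.1), and its values on the arrays of 204 and 206 were above those of the F3 labels in both groups. Ccr6 differed by -0.09 (interval -0.42 to 0.25, adjusted p = 0.857 without and 0.389 with the block). Ccr4 differed by -0.07 (interval -0.57 to 0.44, adjusted p = 0.939 and 0.819), with 2 pairs up and 3 down.

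Cxcr3, the receptor of the interferon-induced chemokines CXCL9, CXCL10 and CXCL11 on T helper 1 and cytotoxic cells, ranged from 4.65 to 5.15 in OIL and from 4.63 to 5.12 in TAM. Its difference was -0.05 (95% confidence interval -0.31 to 0.21, adjusted p = 0.905 without and 0.660 with the block).

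The 3 receptors left out of that test were uniformly dim. Ccr8, a receptor of CCL1, ranged from 3.18 to 3.57 over all 10 arrays, and Cxcr5, the receptor of CXCL13 on follicular helper T cells, from 3.41 to 3.83. The Cxcr6 probe sets, for the receptor of CXCL16, ranged from 3.46 to 4.24 (1425832_a_at) and from 2.72 to 3.34 (1422812_at). Fitted with every probe set and the block, Ccr8 differed by -0.05, Cxcr5 by 0.07 and the Cxcr6 probe sets by -0.04 and 0.01, with adjusted p from 0.700 to 0.974.

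**Figure D3:**
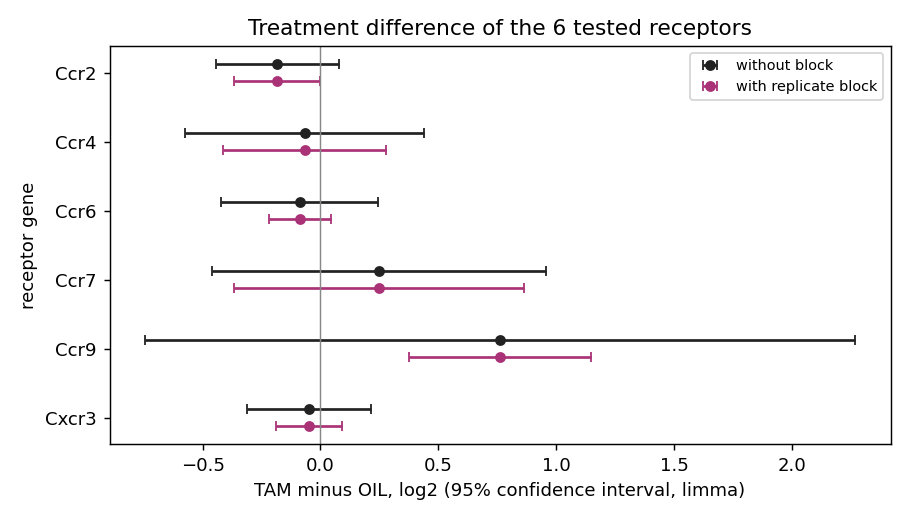
TAM minus OIL in log2 units (horizontal axis) for the 6 tested receptors (vertical axis), with 95% confidence intervals from limma without a block (black) and with the label as a block (purple). The Ccr9 interval runs from -0.74 to 2.27 without and from 0.37 to 1.15 with the block.

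Across labels, the 6 arrays of the F3, F3.1 and F3.2 labels were compared with the 4 of the 204 and 206 labels, with treatment as a term and the label as a random block. Ccr6 was called, higher by 0.40 in the F3 labels (5.17 ± 0.15 against 4.77 ± 0.13, SD, n = 6 and 4 arrays, adjusted p = 0.0434). Of all tested genes 6.56% were called in this comparison, and Ccr6 did not exceed the background limit on any array. The call was lost with the mean of the arrays of each label as the unit (adjusted p = 0.178), in OIL alone (0.302) and in TAM alone (0.243). It held without OIL F3 (0.0111) or TAM F3 (0.0336) and was lost without any other single array (0.0611 to 0.119).

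Ccr9 was 9.16 ± 0.68 in the F3 labels and 7.47 ± 1.20 in 204 and 206 (SD, n = 6 and 4), higher by 1.69 with an adjusted p of 0.0675 that missed the threshold. By label, the mean of both arrays was lowest in 204 (6.54), followed by 206 (8.41), F3.1 (8.53), F3.2 (9.41) and F3 (9.56). The 206 arrays lay beside F3.1, within the OIL to TAM difference of either label, and 204 stood below all the rest. The families overlapped, with 206 in TAM at 8.87 above F3.1 in both groups. Neutrophil markers averaged 4.90 to 5.72 in the 204 and 206 arrays and 5.56 to 7.12 in the F3 arrays, and their part in the Ccr9 values was not tested.

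Ccr4 went the other way, at 4.38 ± 0.26 in the F3 labels and 4.99 ± 0.13 in 204 and 206 (SD, n = 6 and 4), a difference of -0.62 with an adjusted p of 0.0678. It passed with the label means as the unit (0.0386), without the random block (0.0186) and without OIL F3 (0.0344), TAM F3.1 (0.0416) or TAM F3 (0.0217). Both values lay under the background limit. Ccr7 (0.54, adjusted p = 0.426), Ccr2 (0.08, 0.795) and Cxcr3 (-0.17, 0.438) did not pass. The arrays on which Ccr7 exceeded the background limit were all of the F3 labels. OIL F3.1 passed narrowly (5.493 against 5.486) and OIL 204 missed narrowly (5.285 against 5.320), so the limit does not clearly separate the families.

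At an unadjusted p under 0.05, 3 of 6 receptors passed between the label families, against 21.5% of all tested genes, and for 2 of 6, Ccr4 and Ccr6, the families did not overlap, against 11.5% of all. The median difference of the 6 was 0.24, beside 0.00 over all tested genes. Whether the treatment difference itself depended on the family was tested as an interaction. In limma it called 0 genes of 12735, with 714 at an unadjusted p under 0.05 and 0 of the 6 receptors among them (adjusted p from 0.931 to 0.989). For Ccr9 the interaction was -0.22 with an interval from -1.86 to 1.42.

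**Figure D4:**
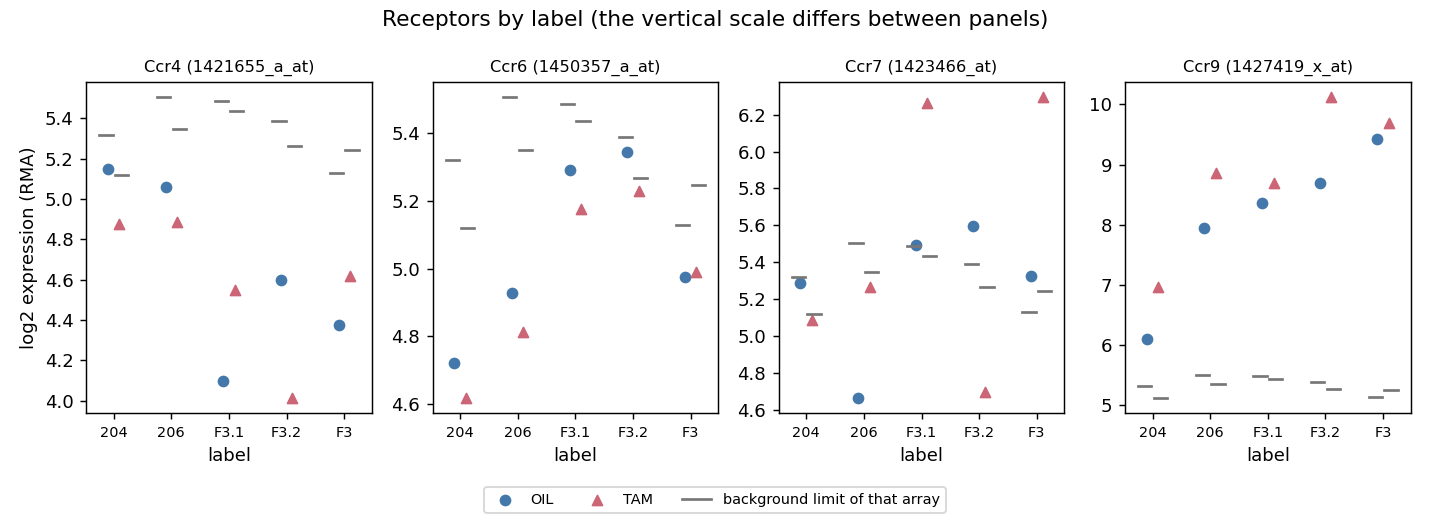
Log2 expression (vertical axis, its scale set per panel) of Ccr4, Ccr6, Ccr7 and Ccr9 by label (horizontal axis), OIL as circles and TAM as triangles, with the background limit of each array as a grey dash. Ccr4 and Ccr6 lie under their dash on every array, Ccr9 lies above it on every array, and the 204 arrays are the lowest for Ccr9.

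Of the 9 receptor genes, 6 (Ccr2, Ccr4, Ccr8, Ccr9, Cxcr5 and Cxcr6) are on chromosome 9, with Ccr6 on 17, Ccr7 on 11 and Cxcr3 on X. Ccr9 and Ccr2 lie 7 genes apart in the RefSeq order, in a cluster with Cxcr6, Xcr1, Ccr1, Ccr1l1 and Ccr3. Those 5 genes between them had mean levels of 2.97 to 3.94 and were not tested. The direct neighbours of Ccr9, Lztfl1 (-0.01) and Fyco1 (-0.15), did not pass either.

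The genes whose values tracked Ccr9 most closely over the 10 arrays were Paxbp1 (Pearson r = 0.955), Snx15 (0.954) and Lpin2 (0.947). These are given as a description. Their TAM minus OIL differences were 0.19, 0.11 and 0.24, and none passed the test without or with the block. Between the label families, where 6.56% of all tested genes were called, Lpin2 was higher by 0.55 in the F3 labels (limma adjusted p = 0.0302). Paxbp1 (0.27, 0.239) and Snx15 (0.26, 0.0806) did not pass.

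Other genes of the chemokine system showed 0 calls. Of 7 other tested chemokine receptors, 7 were lower in TAM and 0 were called (median -0.16). Over all tested genes the median was -0.03 and 41% were higher in TAM. Of the 7, only Ccr10, Cxcr4 and Ackr1 were above the background limit on all 10 arrays, while Ackr4 was on 4, Ccrl2 on 1, and Cx3cr1 and Ackr2 on 0. Cxcr4, the receptor of CXCL12 that was set aside here, read 10.74 ± 0.21 in OIL and 10.66 ± 0.25 in TAM (SD, n = 5). Of 8 tested ligands of the 9 receptors, 2 were higher, 6 were lower (3 and 5 after a further quantile normalization) and 0 were called, and of 7 other tested chemokines 0 were called.

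Of 13 tested genes that act behind the receptors, Ptk2b alone was called without the block, where 0.471% of all tested genes were, and Ptk2b and Gnai3 with it, where 3.38% were. Ptk2b, the calcium-responsive kinase PYK2, rose by 0.88 from 8.01 ± 0.21 to 8.89 ± 0.16 (SD, n = 5, adjusted p = 0.0159, 5 of 5 pairs), and its other probe set differed by 0.40. Gnai3, a Gi subunit through which chemokine receptors signal, fell by 0.75 from 11.79 ± 0.38 to 11.03 ± 0.17 with the block (adjusted p = 0.0264, and 0.0971 without it, 5 of 5 pairs). The Gnai3 call was lost without the pair 204 (0.0744), F3.1 (0.104) or F3 (0.0856). The other 11 genes of that list, Gnai2 and the kinase subunit Pik3cg among them, did not pass. The lists of receptor desensitization (10 tested) and of migration machinery (20 tested) held 0 calls in either fit.

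Egress genes, which set whether lymphoid cells leave for the blood, were higher in TAM in 8 of 8, with a median of 0.42, and in 6 of 8 after a further quantile normalization, where the median was 0.39. Of all tested genes 41% were higher in TAM, with a median of -0.03. By label the mean over the list was lower in TAM in F3.2 (7.35 in OIL and 7.25 in TAM), and S1pr4 was higher in TAM in 2 of 5 pairs and Klf2 in 3 of 5. Without the block 0 of the 8 egress genes were called. The largest difference was that of Cd69 (0.75, 5 of 5 pairs, limma adjusted p = 0.216 without and 0.0622 with the block). The list mixes receptors with genes that control them, so the count gives no direction of egress, which was not tested. Foxo1, a transcription factor that drives homing and egress receptors, rose with the block by 0.72 (adjusted p = 0.0116, and 0.209 without), but its other probe sets differed by -0.07 to 0.80. Of 13 tested transcription factors tied to receptor expression, Relb, a subunit of NF-kappa B, rose by 0.71 from 5.05 ± 0.16 to 5.76 ± 0.14 (SD, n = 5, adjusted p = 0.0159). Relb was above the background limit on 0 OIL and 5 TAM arrays, so the size of its rise is known as a bound, at least 1.31-fold with the OIL arrays set at their limits. In the fit without the block, Ptk2b and Relb both missed the threshold without OIL F3.1 (adjusted p = 0.0692) or OIL F3.2 (0.0506). With the block both stayed called without any 1 of the 5 pairs (adjusted p up to 0.0295 for Ptk2b and 0.0355 for Relb).

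Between the label families 7 of the 86 tested genes of these 8 lists were called (8.14%, against 6.56% of all tested genes), none of them a receptor or a ligand. Runx3, chosen here after its values were seen, was higher in the F3 labels by 3.05 (9.44 ± 0.34 against 6.39 ± 1.19, SD, n = 6 and 4, adjusted p = 0.00515). Runx3 was above the background limit on 9 of the 10 arrays, so 3.05 is not an exact size. The other called genes were Foxo1 (0.66), Arrb2 (0.75) and Dock2 (0.45), which were higher, and Runx1 (-0.93), Tbx21 (-1.37) and Rgs10 (-0.66), which were lower. Tbx21 was above the background limit on 0 of the 6 F3 arrays (mean 4.50) and on 4 of the 4 others (5.88), so its level was at least 1.47-fold lower in the F3 labels when those arrays are set at their limits. Calls of Arrb2, Runx1, Rgs10 and Dock2 were lost without 1 or more single arrays, OIL F3.2 in each case among them. Those of Runx3, Foxo1 and Tbx21 held without each of the 10 (adjusted p up to 0.0423). Leaving out 1 array keeps the other array of its label, so it cannot show whether a call rests on 1 label. With label means as the unit, 331 of all tested genes were called in place of 835.

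**Figure D5:**
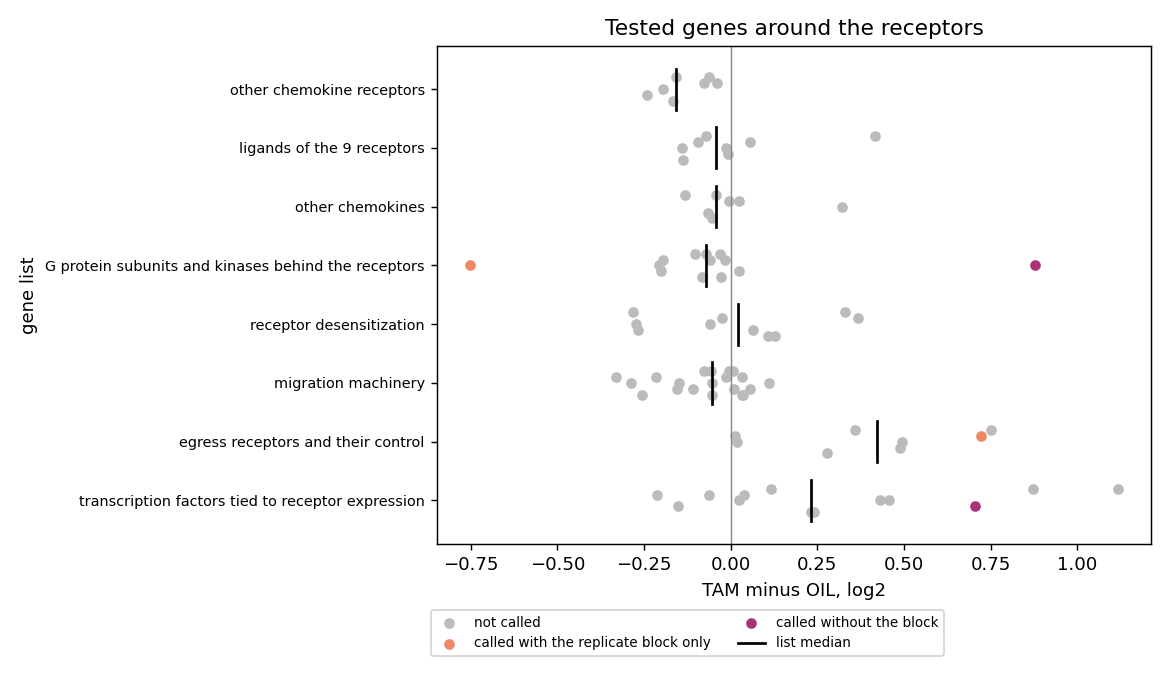
TAM minus OIL in log2 units (horizontal axis) of the tested genes of 8 lists (vertical axis), 1 point per gene, with the list median as a black bar; purple points were called without the block and orange points with it only. Ptk2b (0.88) and Relb (0.71) are purple, Gnai3 (-0.75) and Foxo1 (0.72) are orange, and no chemokine receptor or chemokine is coloured.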

How the data were processed

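The deposited values are log2 expression values; the submitters' processing notes name RMA, without a version, as the authors' method. RMA equalises the arrays' distributions, so a shift common to all genes is removed before deposit. Of 45101 probe sets, 34958 had 1 gene symbol in the platform annotation, 932 had several, 9211 had none and 64 were controls; 34754 matched RefSeq (GRCm38.p6) by gene ID, used for names and for neighbouring genes. Each of 18193 genes was represented by its brightest probe set, and the lowest 30% of genes, under 4.59, were left out, leaving 12735.

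The treatment comparison used limma 3.58.1 (R 4.3.3, data.table version 1.17.8; Benjamini-Hochberg over all genes tested, threshold 0.05), with 8 residual degrees of freedom, and with the label as a block, 4. Arrays of 1 label deviated together from their group means (r = 0.18 in F3.2, 0.58 in F3.1 and 0.75 to 0.80 in the other labels, all over 0.1), which with the labels is the basis of the pairing. Both F3.2 arrays and TAM F3.1 resembled an array of another label most, so the pairing of these labels is the least certain. The labels do not say that arrays are separate mice, so p-values measure the spread between these samples, which may be technical. Arrays have no read depth; their number limits the precision.

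Members, gene lists and tests were chosen with earlier results of these data known. The rule named all 9 receptors with every probe set, list genes called without or with the block, Cxcr4, and the 3 genes most correlated with a receptor above background on all arrays. The scripts were tested on simulated data. Alternatives were other blocks, filters, scalings, probe set rules, variance models, array weights and leaving out arrays.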

Additional observations from a re-analysis of the deposited data

Results flagged for a closer look

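A single value stood apart from its group. Ccr2 probe set 1421186_at read 3.08 on the TAM F3 array and 2.86 to 2.92 on the other 4 TAM arrays, a gap of 0.717 of the group's range against a limit of 0.71. Of 34 groups checked, 2 for each of 17 probe sets, this was the 1 that passed that limit, and chance alone passes about 1 in 20. The probe set lay under the background limit on every array, and the brighter Ccr2 probe set, 1460067_at, was lowest on the same array within TAM, at 4.91.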

How the results depend on the processing

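Called receptors between TAM and OIL stayed at 0 under every alternative run, counting each gene by its brightest probe set (another Ccr9 probe set, 1421919_a_at, passed in 1 of them), and Ccr9 kept its direction over 29 settings (0.26 to 1.24, adjusted p from 0.0544 to 0.893). The sign of Ccr4 turned with array weights (0.15) and with the replicate block without the pair F3.2 (0.062). Without 1 OIL array Ccr4 ran from -0.21 to 0.055 and without 1 TAM array from -0.14 to 0.076, and without single arrays Cxcr3 ran from -0.12 to 0.022. The causes were not tested.

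Of all tested genes, 60 were called between TAM and OIL. The count was 431 with the replicate block, 728 with it as a random term, 242 with array weights, 221 with label family as a term, 33 with every probe set on its own, 26 with the mean of probe sets and 10 with OIL F3.1 and OIL F3.2 averaged. Without single arrays it ran from 8 to 54, and was under 60 by over 1.5 times without OIL F3.1 (8), OIL F3.2 (10), OIL 204 (19), TAM F3.1 (24), TAM 206 (28) or TAM 204 (36). Alternatives chosen after seeing the data were the replicate block without a pair (146 without 204, 184 without 206, 87 without F3.1, 436 without F3.2, 153 without F3) and the replicate block with every probe set on its own (584); with the block and without a pair, Ccr9 ran from 0.60 to 0.89 (adjusted p from 0.0649 to 0.133).

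Between the label families, 835 genes were called. The count was 331 with label means, 1507 without the random block, 298 in OIL alone and 87 in TAM alone, and it ran from 401 to 1472 without single arrays (481 without OIL F3.1 and 442 without TAM 204). The 1 called receptor, Ccr6, became 3 without the random block (Ccr4 and Ccr9 with it) and 0 in OIL alone, in TAM alone, with the lowest 50% of genes left out, which also drops Ccr6 from the test, and with every probe set on its own. With label means the 1 called receptor was Ccr4 in place of Ccr6. Without single arrays the count ran from 0 to 2. Ccr9 passed in 2 settings, without the random block (0.0435) and without TAM F3.1 (0.0493). The interaction called 0 genes with or without the random block.

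At the level below which 30% of genes lie in place of the background limit, 5 receptor probe sets were above on all arrays in place of 1. Most receptor probe sets lay near or under background, which limits what their differences show about the transcripts.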
